A study of Mus musculus with 99 samples.

Results

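The MHC class II genes examined here were H2-Aa, H2-Ab1, H2-Ea, H2-Eb1, H2-DMa, H2-DMb1 and Cd74. They were chosen by name, and the array carries 10 probe sets for these 7 genes among 22416 probe sets in all, of which 7 passed a filter on dim signals that kept 13398. A class II molecule is a pair of an alpha and a beta chain that displays peptides from taken-up proteins to helper T cells. H2-Aa and H2-Ab1 encode the chains of the A molecule, and H2-Ea and H2-Eb1 those of the E molecule. Cd74 encodes the invariant chain, which guides the newly made pairs and keeps their groove covered, and H2-DMa and H2-DMb1 encode the DM pair that loads the peptide. The genes are switched on together by the coactivator Ciita, which interferon gamma induces. In the heart, class II molecules are known mainly from resident macrophages and dendritic cells.

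The levels come from the hearts of untreated male mice on a chow diet, with 1 Affymetrix array for each of 99 strains, for a study that maps expression across inbred strains. The growth protocol gives an age of 16 weeks, while the age label runs from 16 to 113 weeks and was not used. The strains comprised 28 classical inbred strains, CAST/EiJ (wild-derived), B6cC3-1/KccJ and recombinant inbred lines, in which the genomes of a pair of parents are mixed and fixed. C57BL/6J is a parent of each such panel, crossed with DBA/2J in the 30 BXD, with A/J in the 15 AXB and 13 BXA (reciprocal crosses) and with C3H/HeJ in the 11 BXH. The AXB19 arrays and the BXD24 arrays, from near-isogenic strains, were averaged, which left 96 families. One of the BXD24 arrays is from BXD24/TyJ-Cep290<rd16>/J, which carries the rd16 mutation of Cep290, a cilium gene. BXD29 is BXD29-Tlr4<lps-2J>/J, which carries the lps-2J mutation of Tlr4, an innate immune receptor. With 1 array per strain, errors and p-values rest on the spread between strains, which includes technical spread, and the number of arrays limits the precision.

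The deposited values are on the log2 scale and ran from 2.40 to 13.695, with array medians from 3.97 to 4.07. The heart muscle genes Actc1 (12.95 to 13.69), Tnnt2 (12.64 to 13.03) and Ryr2 (10.44 to 11.44) were high on every array. Markers of at least 1 other organ stood more than 2 log2 units above their median on 39 of the 99 arrays, among them 9 of the 28 classical, 10 of the 30 BXD, 6 of the 15 AXB, 5 of the 13 BXA and 8 of the 11 BXH arrays. Airway secretory genes alone did so on 8 classical, 6 BXD, 4 AXB, 1 BXA and 8 BXH arrays. In whole hearts, fewer cells of a type and less RNA per cell cannot be told apart.

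The promoters of 4 of the 7 members, H2-Aa, H2-Eb1, H2-DMb1 and H2-DMa, are described here from RefSeq's promoter sequences of GRCm38.p6, which is the C57BL/6J genome. They are shown because the 3 printed here carry short elements by which class II genes are known to be controlled together. The stretches cover 170 bases up to the start of transcription on chromosome 17, 5′ to 3′ on the strand of the gene. The capitals mark TGATTGG (the core of the Y box, an inverted CCAAT box), AACTGATG (part of the X box) and, in H2-Aa, TGACGTCA (a cyclic AMP response element at the place of the X box).
H2-Aa (minus strand, chr17:34287824-34287993): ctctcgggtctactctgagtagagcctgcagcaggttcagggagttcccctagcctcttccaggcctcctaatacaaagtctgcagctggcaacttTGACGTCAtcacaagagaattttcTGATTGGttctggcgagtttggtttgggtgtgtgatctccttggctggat
H2-Eb1 (plus strand, chr17:34305697-34305866): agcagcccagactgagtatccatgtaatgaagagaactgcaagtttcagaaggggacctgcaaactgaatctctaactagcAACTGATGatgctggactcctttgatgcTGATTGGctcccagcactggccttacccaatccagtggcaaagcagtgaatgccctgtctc
H2-DMb1 (plus strand, chr17:34153021-34153190): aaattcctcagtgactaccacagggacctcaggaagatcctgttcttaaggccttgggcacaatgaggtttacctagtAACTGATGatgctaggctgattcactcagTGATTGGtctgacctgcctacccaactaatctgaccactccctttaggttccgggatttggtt

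Searching both strands of all 32851 windows of 300 bases found TGATTGG in 7.82%, AACTGATG in 0.776%, TGACGTCA in 1.79%, and the first and second motif in the same window in 28 (0.0852%). H2-Eb1 and H2-DMb1 hold both of these, with AACTGATG starting 89 and 92 bases and TGATTGG 61 and 63 bases before the start site. In H2-Aa TGACGTCA starts 74 and TGATTGG 50 bases before it. These letters do not occur in the windows of the H2-DMa starts. No promoter of H2-Ab1 or H2-Ea was found among RefSeq's promoters. The search was also run for Cd74, which lies on chromosome 18. It listed no match to these letters for Cd74, and no stretch of that gene is shown. The motifs do not overlap each other, they were chosen after the sequences had been seen, and a match is a description, not a bound site.

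The members differed in how bright they were. Cd74 (probe set 1425519_a_at) had a mean of 7.06 over the 99 arrays, H2-Eb1 (1417025_at) 6.04, H2-Ab1 (1450648_s_at) 5.67 and H2-Aa (1452431_s_at) 4.98. H2-Ea had probe sets at 4.82 (1422891_at), 4.74 (1422892_s_at) and 3.00 (1426202_at), and H2-DMa (1422527_at) lay at 3.67. These levels belong to their own probe sets and are not compared between genes. The suffix _s_at, on 1450648_s_at, 1452431_s_at and 1422892_s_at, marks a probe set as matching several transcripts. Which transcripts these probe sets match was not examined. Below the filter at 3.59 were H2-DMb1 (1418638_at, mean 3.47), a further H2-Ab1 probe set (1425477_x_at, 3.51) and H2-Ea 1426202_at, which stayed between 2.76 and 3.41 on all arrays. Across strains the 7 tested member probe sets varied widely. Their median SD was 1.09 log2 units in the 28 classical strains, 0.74 in 29 BXD families, 0.48 in 26 AXB and BXA families and 0.57 in the 11 BXH strains, against 0.23, 0.22, 0.20 and 0.22 for all tested probe sets.

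Among the classical strains, SWR/J and I/LnJ stood at the top for the A molecule and the invariant chain. SWR/J had 8.80 for H2-Aa, 9.56 for H2-Ab1, 6.21 for H2-DMa and 9.89 for Cd74, the highest classical value of each, and 6.17 for the dim H2-Ab1 probe set. I/LnJ came next in all but the dim probe set, with 7.27 for H2-Aa, 8.50 for H2-Ab1, 4.91 for H2-DMa and 8.95 for Cd74, and it led H2-Eb1 with 8.83. These 2 arrays also had the highest means of the 12 interferon gamma response genes on the array, 6.50 in I/LnJ and 6.41 in SWR/J, where all arrays ran from 4.01 with a median of 4.80. Their macrophage lists stood at 6.01 and 6.22 within an overall range of 4.91 to 6.39. At the low end AKR/J had 3.90 for H2-Aa, 4.07 for H2-Ab1 and 5.40 for Cd74, and RIIIS/J had 5.55 for Cd74. The part of the interferon response and of macrophages in these values was not tested.

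Which of these differences went with the class II haplotype, the block of class II alleles a strain carries, was examined in the strains of haplotypes b, d, k and q. The haplotypes are textbook assignments and are not in the labels. Type b was carried by 129X1/SvJ, BTBR T<+> tf/J, C57BL/6J, C57L/J and LP/J, type d by BALB/cJ, DBA/2J, NZB/BlNJ and SEA/GnJ, type k by A/J, AKR/J, C3H/HeJ, C58/J, CBA/J, CE/J and MA/MyJ, and type q by BUB/BnJ, FVB/NJ and SWR/J. A/J carries haplotype a, whose class II genes are of the k type. Strains of 1 haplotype are also related elsewhere in the genome, and the haplotype and other shared ancestry cannot be told apart. The same holds for probe binding and transcript level where alleles differ in sequence, since probe-level values were not used here.

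H2-Ea gave the sharpest pattern. Strains of haplotype b are known to lack the E alpha chain through a deletion in the H2-Ea promoter, q strains are also known to lack E molecules, and d and k strains are known to make them. On probe set 1422892_s_at the d strains read 8.74 in BALB/cJ, 8.44 in DBA/2J, 8.40 in SEA/GnJ and 8.22 in NZB/BlNJ. The b strains read 3.13 in 129X1/SvJ, 3.15 in LP/J, 3.21 in C57BL/6J, 3.46 in C57L/J and 3.47 in BTBR T<+> tf/J. All d strains lay above all b strains with no overlap, and the b values lie below the filter level of 3.59, close to the floor of the array. Other probe sets that separate the d strains as fully from the b or the k strains were not counted.

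The k strains ran from 3.33 in AKR/J through a median of 3.80 to 4.78 in C58/J, and so stayed below every d strain although k strains are known to make E molecules. The q strains read 3.50 in FVB/NJ, 3.63 in BUB/BnJ and 5.27 in SWR/J. The mean difference d minus b was 5.17 ± 0.30 log2 units (SE, limma, adjusted p = 1.14e-08). It was the 1 member probe set called in that comparison, where 0.0373% of all tested probe sets were called, that is, had a Benjamini-Hochberg adjusted p under 0.05.

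H2-Ea 1422892_s_at was also the 1 member called in k minus d, with -4.56 ± 0.28 log2 units (SE, limma, adjusted p = 3.06e-08; 0.0373% of probe sets called), and in q minus d, with -4.32 ± 0.34 (SE, adjusted p = 1.08e-06; 0.0597% called). No member was called in k minus b (0.0299% of probe sets called, 1245 of 13398 at an unadjusted p under 0.05), q minus b (0.0672%, 1341) or q minus k (0.0597%, 856). For k minus b the H2-Ea difference was 0.61 ± 0.26 (SE, adjusted p = 0.477). The other H2-Ea probe set above the filter, 1422891_at, differed far less, with d minus b at 0.55 ± 0.15 (SE, adjusted p = 0.424) and the d strains between 5.07 and 5.70. Its highest classical values were in PL/J (6.16), NZW/LacJ (5.92) and SM/J (5.71), which had 4.26, 4.15 and 6.95 on 1422892_s_at.

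Strains outside the 4 haplotypes filled the range between. LG/J, whose haplotype was not assigned, had the highest H2-Ea value of all arrays at 9.35, followed below the d strains by SM/J (haplotype v) at 6.95, NON/ShiLtJ (nb1) at 6.51 and I/LnJ (j) at 5.54. CAST/EiJ read 5.29. RIIIS/J (haplotype r) at 3.44, KK/HlJ (not assigned) at 3.23 and NOD/ShiLtJ (g7) at 3.10 lay near the b strains. NOD/ShiLtJ is known to lack the E alpha chain, as the b strains do.

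**Figure D1:**
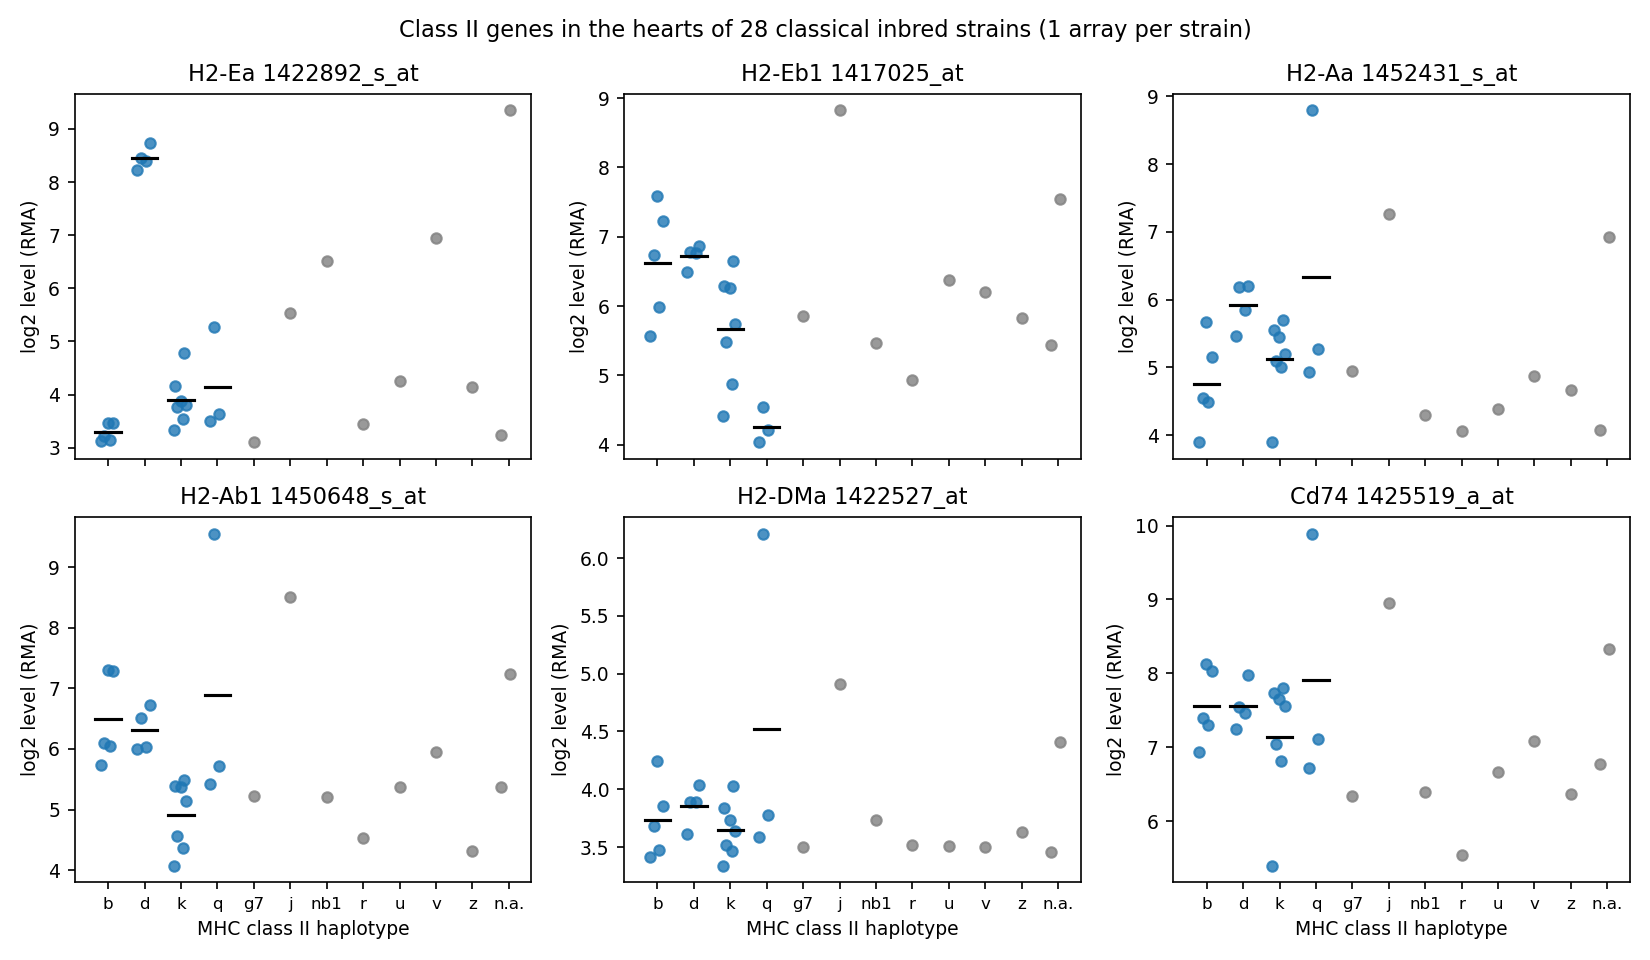
Log2 levels of 6 class II probe sets in the 28 classical strains, by class II haplotype (n.a., not assigned). Each point is 1 array, blue for the haplotypes that were tested and grey for the others, and black bars are means of the tested groups. The 4 d strains sit at 8.22 to 8.74 for H2-Ea 1422892_s_at and the 5 b strains at 3.13 to 3.47, and the 3 q strains have the lowest mean for H2-Eb1.

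H2-Eb1, the E beta chain, read low in the q strains, at 4.03 in BUB/BnJ, 4.21 in FVB/NJ and 4.54 in SWR/J. The b strains ran from 5.57 to 7.59 (median 6.73), the d strains from 6.49 to 6.86 and the k strains from 4.41 in AKR/J to 6.65 in C58/J. All 3 q strains lay below every b and d strain. How many other probe sets separate these groups as fully was not counted. Of the k strains, AKR/J lay within the range of the q strains and the next, MA/MyJ, read 4.87. SWR/J thus combined the highest H2-Aa, H2-Ab1 and Cd74 with an H2-Eb1 value near the bottom. The q minus b difference was -2.36 ± 0.46 log2 units (SE, limma, adjusted p = 0.0647) and q minus d -2.46 ± 0.48 (adjusted p = 0.0621), neither past the threshold over all probe sets. Without LP/J, q minus b was -2.62 with an adjusted p of 0.0326. With Cd74 on the same array as a covariate, a fit added after the values had been seen, the differences were -2.55 ± 0.35 (SE, limma, adjusted p = 0.00491) and -2.65 ± 0.36 (adjusted p = 0.00398).

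H2-Ab1 was lower in the k strains in level without passing the test. The k strains read 4.07 to 5.49 and the b strains 5.74 to 7.30, with no overlap, and the d strains 6.01 to 6.73. How many other probe sets separate k from b strains as fully was not counted. The k minus b difference was -1.58 ± 0.53 log2 units (SE, limma, adjusted p = 0.376) and k minus d -1.41 ± 0.57 (adjusted p = 0.999). H2-Aa did not follow it, with 3.90 to 5.69 in k and 3.91 to 5.67 in b strains, and k minus b was 0.37 ± 0.50. Cd74 overlapped between all 4 haplotypes, with means of 7.56 ± 0.50 in b (SD, n = 5), 7.56 ± 0.30 in d (n = 4), 7.14 ± 0.85 in k (n = 7) and 7.91 ± 1.73 in q (n = 3). Macrophage list means also overlapped, at 5.65 to 6.19 in b, 5.60 to 6.16 in d, 5.58 to 6.10 in k and 5.37 to 6.22 in q.

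**Figure D2:**
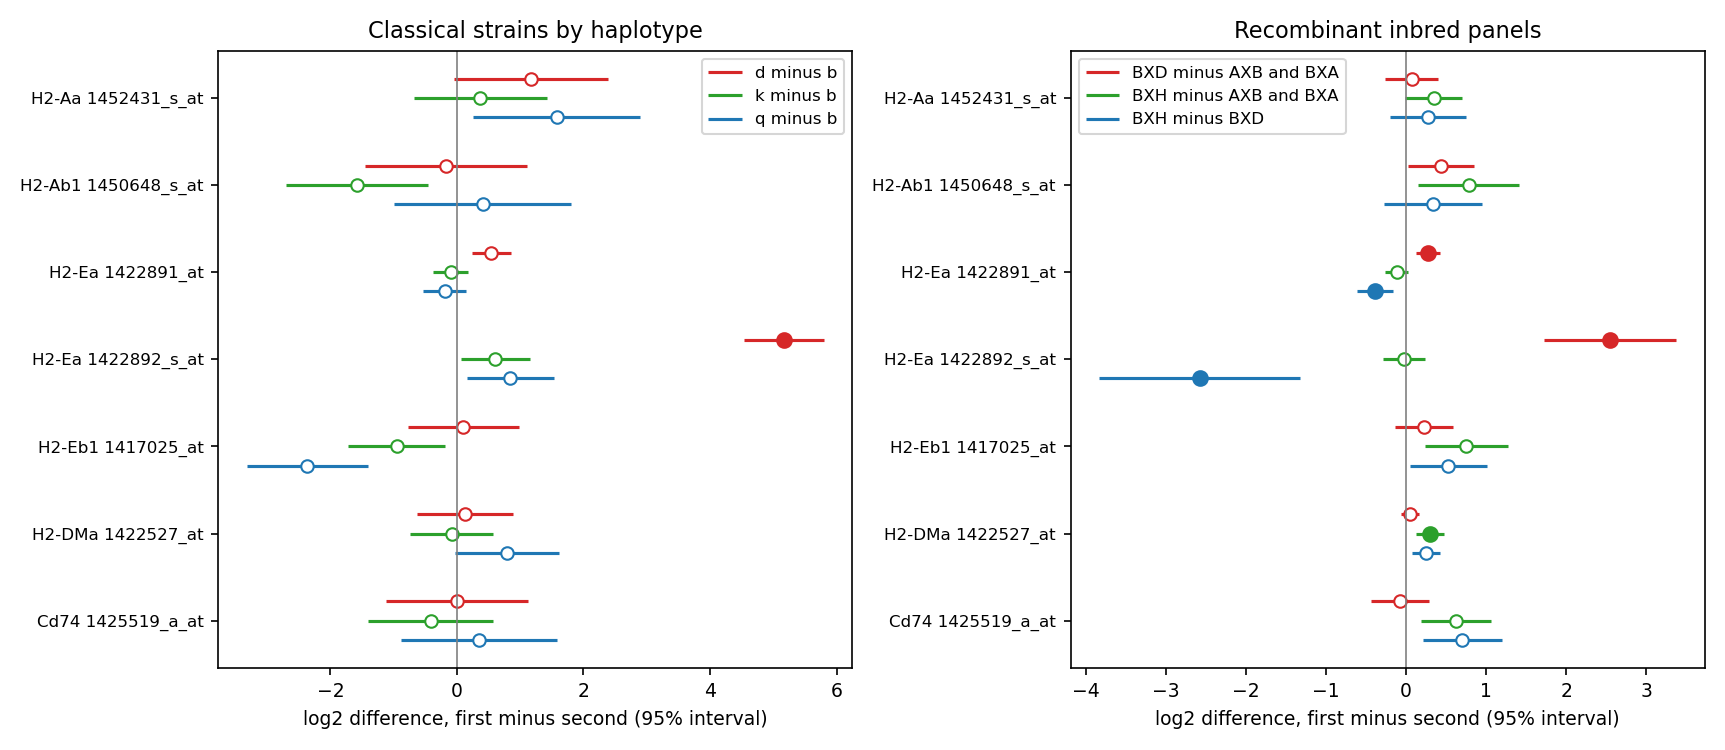
Log2 differences of the 7 tested member probe sets with 95% intervals from limma, on the left between haplotypes d, k or q and b, on the right between recombinant inbred panels. Filled points were called at an adjusted p under 0.05 and open points were not. H2-Ea 1422892_s_at is the filled point at 5.17 on the left and those at 2.55 and -2.58 on the right.

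The levels in the recombinant inbred panels were set beside those of their parents, with 1 array a parent. Genotypes of the families were not used. For H2-Ea 1422892_s_at, C57BL/6J read 3.21 and DBA/2J 8.44, and the 29 BXD families fell into separate clusters. A set of 10 families lay between 3.26 and 3.65 (median 3.34), namely BXD2, BXD8, BXD13, BXD14, BXD15, BXD19, BXD20, BXD29-Tlr4<lps-2J>/J, BXD39 and BXD42. The other 19 lay between 5.40 and 8.74 (median 7.503), with a gap of 1.75 log2 units and no family inside it. BXD27 was the lowest of these at 5.40, below the parental midpoint of 5.83, and it also had the lowest Cd74 of its panel at 4.70.

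The AXB and BXA families, whose parents read 3.21 and 3.87, ran from 3.10 to 4.60. In BXH, whose parents read 3.21 and 3.80, the strains ran from 3.23 to 4.205. Neither panel had a family at the level of the upper BXD cluster. BXD exceeded AXB and BXA by 2.55 ± 0.41 log2 units (SE, limma, adjusted p = 1.38e-05) and BXH fell below BXD by 2.58 ± 0.62 (adjusted p = 0.00598). On 1422891_at, BXD minus AXB and BXA was 0.27 ± 0.08 (adjusted p = 0.0109) and BXH minus BXD -0.39 ± 0.11 (adjusted p = 0.0227). These were the 2 member probe sets called in each comparison, where 14.3% and 9.9% of all probe sets were called. Both BXD differences share the BXD families. The BXH minus BXD calls did not hold in every fit. With the title number as a covariate the differences were -1.42 (limma, adjusted p = 0.925) on 1422892_s_at and -0.02 (adjusted p = 0.995) on 1422891_at. Title numbers of BXH and BXD do not overlap, so that fit cannot separate the panel from the title order. Without the arrays carrying markers of another organ, which left 3 BXH strains, the differences were -2.76 (adjusted p = 0.243) and -0.49 (adjusted p = 0.216). On 1422891_at, BXD minus AXB and BXA was 0.26 without those arrays (adjusted p = 0.0698) and 0.27 with the Gapdh 3' minus 5' difference as a covariate (adjusted p = 0.057).

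For the A molecule and Cd74 the BXD families mostly lay below both parental arrays. C57BL/6J had 8.12 and DBA/2J 7.98 for Cd74, and the 29 families ran from 4.70 to 7.93 (median 6.78), all below both. For H2-Ab1 the parents read 7.29 and 6.52 and 25 families lay below both, and for H2-Aa 5.67 and 6.18 with 23 below both and 1 above. H2-Eb1 read 7.59 and 6.86 in the parents, and 26 families lay below both. With 1 array a parent, how far those arrays stand from their strains' usual level is not known. The DBA/2J array also carried airway markers, with a list mean of 9.28 where all arrays had a median of 3.58. Their part was not tested. The C57BL/6J and DBA/2J arrays have title numbers 74 and 80, and the BXD arrays 473 to 670. The step from parents to families thus cannot be told apart from whatever the title numbers order.

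In AXB and BXA the parents were further apart, and the families mostly lay between or below them. The A/J array carried airway markers too, with a list mean of 6.39. Its title number, 313, lies below those of the AXB and BXA arrays, 481 to 683. A/J read 4.36 and C57BL/6J 7.29 for H2-Ab1, and the 26 families ran from 3.96 to 7.03 (median 5.22), with 3 above the midpoint of 5.82 and 4 below both parents. For H2-Eb1 A/J read 5.48 and the families ran from 4.56 to 7.05, with 5 above the midpoint and 10 below both parents. Cd74 was 6.81 in A/J and ran from 5.85 to 8.11, with 6 families above the midpoint of 7.47 and 13 below both parents. H2-Aa read 5.001 in A/J and 5.67 in C57BL/6J, with 18 families below both and 1 above both. The reciprocal crosses AXB and BXA had 0 of the 7 members called, as 0% of all probe sets were called there by limma (1370 of 13398 at an unadjusted p under 0.05).

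In BXH the parents C57BL/6J and C3H/HeJ read 7.29 and 5.13 for H2-Ab1, and the 11 strains ran from 3.92 to 7.78 with 4 above the midpoint. The BXH strains had the highest panel means for Cd74 at 7.52 ± 0.66 (SD, n = 11), for H2-Eb1 at 6.54 ± 0.80 and for H2-Ab1 at 6.02 ± 1.16. Against AXB and BXA, Cd74 differed by 0.62 ± 0.22 log2 units (SE, limma, adjusted p = 0.0833), H2-Eb1 by 0.75 ± 0.25 (adjusted p = 0.0701) and H2-Ab1 by 0.78 ± 0.31 (adjusted p = 0.146).

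H2-DMa was the 1 member probe set called in BXH against AXB and BXA, at 0.30 ± 0.08 log2 units (SE, limma, adjusted p = 0.0305), with 5.61% of all probe sets called. The BXH strains ran from 3.49 to 4.43 (median 3.77) and the AXB and BXA families from 3.29 to 4.097 (median 3.45), so the groups overlapped. The AXB and BXA mean of 3.53 lay below the filter level of 3.59, close to the floor. Over all arrays the probe set passed the filter by its mean of 3.67, while its median was 3.57. Its place in the test thus rests on the arrays where it is higher. The call was lost when AXB19 and BXD24 arrays were not averaged (0.25, adjusted p = 0.184), without the arrays carrying markers of another organ (0.19, adjusted p = 0.624), with the title number as a covariate (0.24, adjusted p = 0.941) and with Cd74 as a covariate (0.14, adjusted p = 0.384). Without the AXB19/PgnJ array H2-Eb1 was called as well, at 0.78 (adjusted p = 0.0456).

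Beside these BXH values, 8 of 12 tested macrophage genes were called higher in BXH than in AXB and BXA (median of the list 0.59, of all probe sets -0.01) and 8 of 12 than in BXD (median 0.52), where 5.61% and 9.9% of all probe sets were called in either direction. The airway list was high in 8 of the 11 BXH arrays, with 4 of its 6 tested genes called higher in each comparison. The sample titles of BXH run from 3 to 394 and those of BXD from 473 to 670 and of AXB and BXA from 481 to 683, without overlap, so the panel and whatever the title numbers order cannot be told apart. The part of macrophages and of the other tissue in the BXH differences was not tested.

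**Figure D3:**
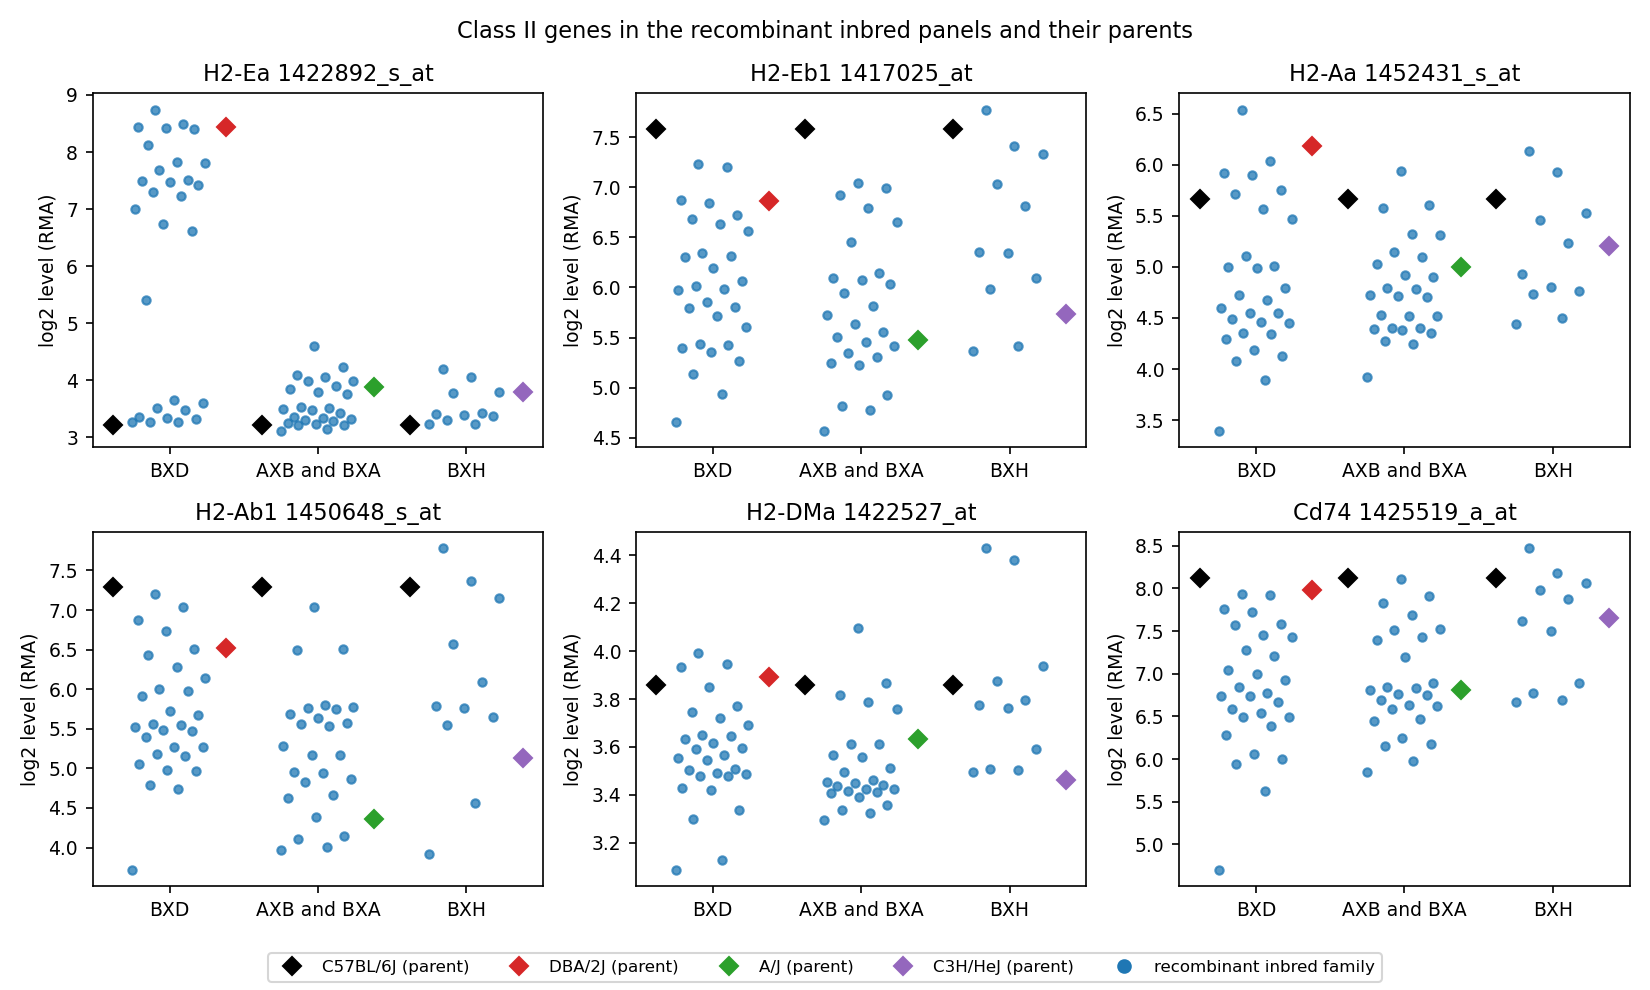
Log2 levels of 6 class II probe sets in the BXD (29), AXB and BXA (26) and BXH (11) families. Blue points are families, and diamonds are the single parental arrays, C57BL/6J at the left of each panel and the other parent at the right. The BXD families split into 10 at 3.26 to 3.65 and 19 at 5.40 to 8.74 for H2-Ea 1422892_s_at, and all 29 lie below both parents for Cd74.

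With all arrays, H2-Aa, H2-Ab1, H2-Eb1 and H2-DMa correlated with Cd74 within each of 4 groups of strains, and H2-Ea 1422891_at did not pass in any. Pearson's r and Spearman's rho between Cd74 and each other member or marker list were computed in 4 groups, 48 pairs in all, of which 46 were tested by 100000 two-sided permutations and adjusted together. The lung and airway list fell into separate clusters in the classical and BXH strains and got no pooled value. H2-Ab1 followed Cd74 in the 28 classical strains with r = 0.87 and rho = 0.77 (permutation p = 1e-05 for both, the smallest they can give; adjusted p = 5.75e-05 and 0.000115), and r was 0.80 without AKR/J and SWR/J, the strains farthest from the median of Cd74. In the 29 BXD families r was 0.94 and rho 0.93 (permutation p = 1e-05 for both, adjusted 5.75e-05 and 0.000115), and r was 0.91 without BXD20 and BXD27. The 26 AXB and BXA families gave r = 0.70 and rho = 0.75 (permutation p = 8e-05 and 2e-05, adjusted 0.000409 and 0.000131), with 0.71 after BXA12 and AXB24 were left out. The 11 BXH strains gave r = 0.87 and rho = 0.94 (permutation p = 0.00029 and 9e-05, adjusted 0.00121 and 0.00046), with 0.79 without BXH7 and BXH2.

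H2-Eb1 followed Cd74 with r = 0.91 for BXD, 0.74 for AXB and BXA and 0.88 for BXH (adjusted permutation p = 5.75e-05, 5.75e-05 and 0.0018). Its rho values were 0.89, 0.73 and 0.88 (adjusted permutation p = 0.000115, 0.00023 and 0.00212). In the classical strains r was 0.49 and rho 0.63 (permutation p = 0.00811 and 0.0006, adjusted 0.0196 and 0.00212). There r was 0.76 without AKR/J and SWR/J. H2-Aa gave r between 0.48 in BXD and 0.87 in the classical strains, and H2-DMa between 0.56 in BXD and 0.78 in the classical strains, each with an adjusted permutation p under 0.05 in all 4 groups. Without the arrays carrying markers of another organ, r fell short of the threshold for H2-Eb1 in the classical strains (r = 0.47, n = 19, adjusted permutation p = 0.085; rho 0.57, adjusted 0.0293). It also fell short for H2-Aa in BXD (r = 0.46, n = 19, adjusted permutation p = 0.085), and BXH had too few strains left. The dim H2-DMb1 probe set passed in the classical strains (r = 0.58) and BXD (r = 0.45) and not in AXB and BXA (0.38) or BXH (-0.05). For H2-Ea 1422891_at r ran from -0.28 in BXH to 0.11 in BXD, and no group passed.

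H2-Ea 1422892_s_at, which splits BXD, was examined within the clusters of that panel, 8 pairs adjusted together. In the 19 families of the upper cluster it followed Cd74 closely, with r = 0.97 and rho = 0.93 (permutation p = 1e-05 for both, adjusted 2e-05 and 2.67e-05), and r was 0.95 without BXD9 and BXD27. The same families gave r = 0.95 with H2-Ab1, 0.91 with H2-Aa and 0.89 with H2-Eb1 (rho 0.91, 0.91 and 0.86, each with an adjusted permutation p of at most 4e-05). In the 10 families of the lower cluster r with Cd74 was 0.28 and rho 0.28 (permutation p = 0.426 and 0.424, adjusted 0.487 and 0.472), and r was -0.01 without BXD42 and BXD13. There H2-Aa gave r = 0.68 and rho = 0.76 (permutation p = 0.0214 and 0.0143, adjusted 0.0343 and 0.0229), with 0.56 when the same 2 families were left out. The H2-Ea values of the lower cluster, 3.26 to 3.65 with a median of 3.34, lie close to the floor, mostly below the filter level of 3.59. Neither the low nor the passing r in that cluster can therefore be read as a relation of H2-Ea expression. Cd74 itself overlapped between the clusters, at 5.94 to 7.93 in the lower and 4.70 to 7.73 in the upper. Its medians were 6.83 and 6.78, while H2-Aa had medians of 4.395 in the lower and 5.01 in the upper cluster. The r of 0.48 between H2-Aa and Cd74 over all BXD families pools these clusters. The difference between the clusters in these relations was not tested.

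**Figure D4:**
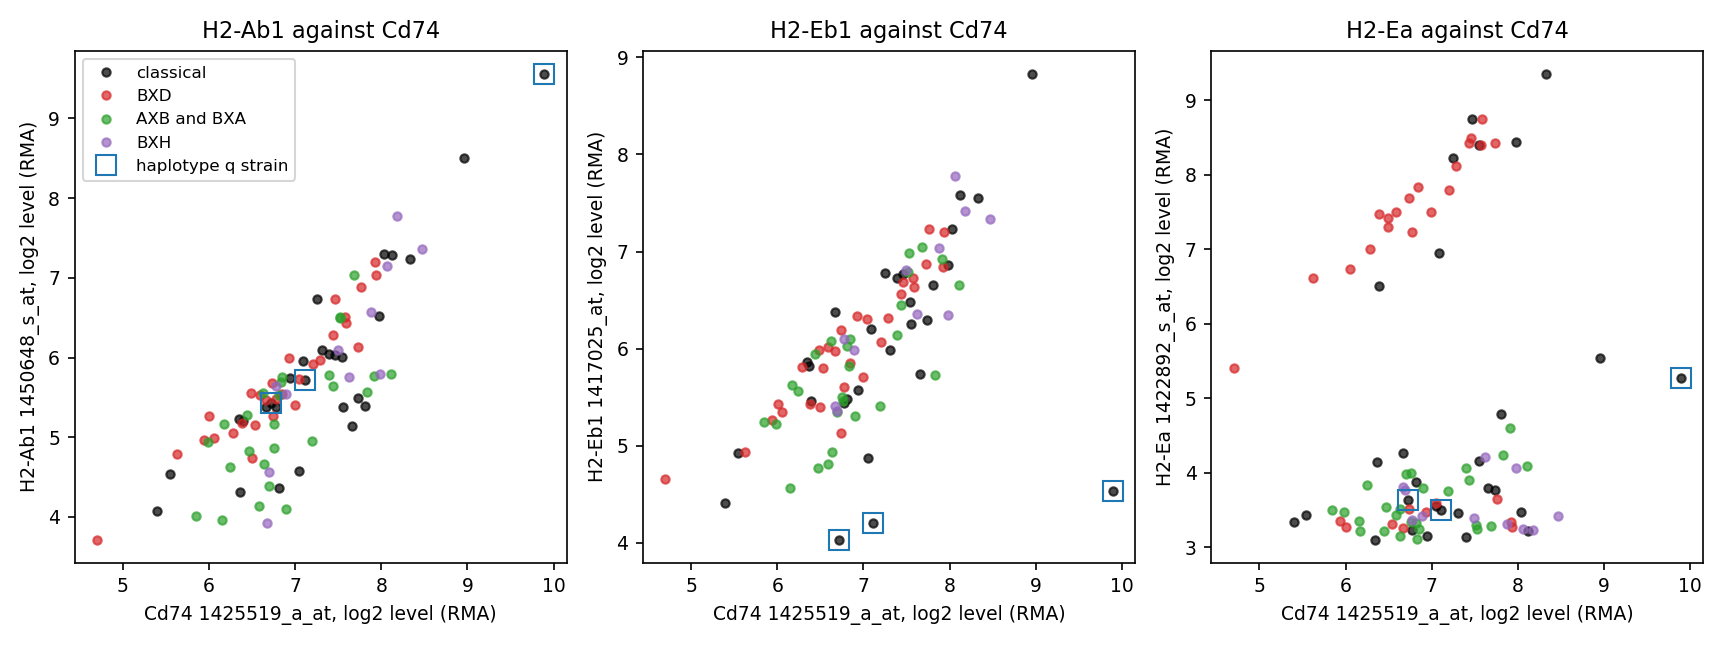
H2-Ab1, H2-Eb1 and H2-Ea 1422892_s_at against Cd74, all as log2 levels, in the classical strains and the recombinant inbred families, with squares around the 3 strains of haplotype q. H2-Ab1 rises with Cd74 in every group (r from 0.70 to 0.94). FVB/NJ and BUB/BnJ lie low for H2-Eb1 among strains of like Cd74, SWR/J has the highest Cd74 of the classical strains and no neighbour in it, and the BXD families of the upper H2-Ea cluster form a line (r = 0.97) while those of the lower cluster stay at 3.26 to 3.65.

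Of the marker lists, the interferon gamma response genes, which include Psmb8 and Psmb9 of the class II region, went with Cd74 in 3 groups. Their r was 0.77 in the classical strains, 0.46 in BXD and 0.62 in AXB and BXA (rho 0.65, 0.49 and 0.48; permutation p for r = 1e-05, 0.0138 and 0.00081, adjusted 5.75e-05, 0.0301 and 0.00266). In BXH it was 0.64 (rho 0.67, permutation p = 0.0319, adjusted 0.0564). Without the 2 farthest families BXD gave 0.30. The macrophage list passed in AXB and BXA (r = 0.54, adjusted permutation p = 0.0117) and in the classical strains (r = 0.43, adjusted permutation p = 0.0391; rho 0.42, adjusted 0.0512). It did not pass in BXD (-0.12) or BXH (0.38). Without the arrays carrying markers of another organ, the macrophage list still passed in AXB and BXA (r = 0.63, adjusted permutation p = 0.0243). It did not pass in the classical strains then (r = 0.44, n = 19, adjusted permutation p = 0.1001).

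Dendritic cell genes passed in the classical strains (r = 0.61, adjusted permutation p = 0.00195), where r was 0.47 without AKR/J and SWR/J. Their list stayed between 3.31 and 3.70 on all arrays, near the floor, and the B cell list between 3.31 and 4.13. The B cell list passed in the classical strains (r = 0.45, adjusted permutation p = 0.0346) and the T cell list in no group. Without the arrays carrying markers of another organ, the B cell list did not pass there (r = 0.42, n = 19, adjusted permutation p = 0.137). The dendritic cell list still did (r = 0.65, adjusted permutation p = 0.00882). The T cell and thymus lists were highest on the AXB19/PgnJ array, at 7.19 and 6.74 where all arrays had medians of 3.43 and 3.52.

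That array stood apart from the near-isogenic AXB19a and AXB19b in the members too. H2-Ab1 read 9.04 in AXB19/PgnJ against 5.68 and 6.38, H2-Eb1 8.66 against 5.93 and 6.55, and Cd74 9.22 against 6.91 and 6.92. H2-DMa read 4.92 against 3.57 and 3.81, while H2-Ea 1422892_s_at stayed at 3.55 against 3.11 and 3.19. The high class II values lay with thymus markers on that array, and their part was not tested. The BXD24 arrays differed less, by 0.14 log2 units for H2-Ab1, 0.39 for Cd74, 0.62 for H2-Ea 1422892_s_at and 0.66 for H2-Aa.

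Over the 94 families of the 4 groups, after each group's mean was subtracted, the gene outside the members most like Cd74 was Psmb8 (r = 0.74), an immunoproteasome subunit encoded in the class II region. It was followed by H2-DMb2 (0.69), the second DM beta gene, H2-K1 (0.69), a class I heavy chain, and Psmb9 (0.68), another immunoproteasome subunit. Next came Phf20l1 (0.66), H2-D1 (0.64), a class I heavy chain, and the interferon-induced GTPases Ifi47 (0.64) and Igtp (0.60). These are the highest of 7513 genes and are a description without a test. Among the members, H2-Ab1 came first of all genes at r = 0.85, H2-Aa at 0.73, H2-DMa at 0.68 and H2-Eb1 at 0.67. H2-DMb1 and H2-DMb2 are near-identical copies and the suffix of this probe set marks it as matching several transcripts, so their signals cannot be told apart.

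The genes most like H2-Ea were others. For 1422891_at these were Marchf2 (0.52), Rrp1b (0.43), Atp5mpl (0.41), Rhobtb2 (0.37) and Zbed3 (0.37). For 1422892_s_at, Marchf2 again led (0.52), followed by Ddx39b (0.40), Lst1 (0.40), Ppp1r11 (0.38) and Slc25a45 (0.38), while H2-Aa, a member, reached 0.57. The families share their arrays' quality and other tissue content in these correlations.

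The wider pathway was taken from a list of 23 genes of class II transcription, peptide processing and interferon gamma signalling, of which 20 were on the array and 15 passed the filter. Ciita, the coactivator, had a mean of 3.25 and did not pass. None of the 15 was called in the 6 haplotype comparisons or in AXB minus BXA. In BXD minus AXB and BXA 2 of 15 were called higher and 0 lower, where 14.3% of all probe sets were called, so the share was near that background. They were Ifi30 (0.33 log2 units, adjusted p = 0.0272), a lysosomal thiol reductase that opens antigens, and the kinase Jak2 (0.30, adjusted p = 7.09e-05), with a median of 0.01 over the list and 0.01 over all probe sets.

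In BXH minus AXB and BXA 3 of 15 were called higher and 0 lower, against 5.61% of all probe sets, Ifi30 (0.70, adjusted p = 0.00388), Ctss (0.49, adjusted p = 0.021) and Lgmn (0.29, adjusted p = 0.0328). Ctss encodes cathepsin S, which trims the invariant chain, and Lgmn a lysosomal endopeptidase. In BXH minus BXD 3 of 15 were called, against 9.9% of all probe sets. Ctss (0.58, adjusted p = 0.0021) and Lgmn (0.31, adjusted p = 0.0499) were called higher and Jak2 (-0.35, adjusted p = 0.00103) lower. The macrophage list had 8 of 12 genes called higher in both BXH comparisons and 1 of 12 in BXD minus AXB and BXA, and its part in the pathway values was not tested. Of 6 tested neighbours of the class II genes on chromosome 17, 1, Brd2, was called in BXD minus AXB and BXA (0.15, adjusted p = 0.0233), where 14.3% of all probe sets were called, and none in the other comparisons.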

How the data were processed

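Heart RNA was primed with oligo-dT, labelled and hybridised, per the labels' protocols. The deposited log2 values cover 22416 probe sets (89 controls). GCOS and RMA are named in the submitters' processing notes, with no version. RMA normalises by quantiles, so arrays share a distribution and signal over background cannot be given. Scanner files were not analysed here. Genes come from the platform annotation: 17783 probe sets had 1 symbol, 284 several and 4349 none, and 17759 matched RefSeq, which changed 0 symbols. Chromosomes and promoters are RefSeq's (GRCm38.p6). For the array itself, no build is stated in the sources used here.

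Probe sets with a mean above the 40th percentile (3.59) were tested with limma 3.58.1 in R 4.3.3 (lmFit, eBayes, no covariate). The 4 haplotypes shared 1 fit, panel fits held only the compared families, and p-values were adjusted over all 13398 probe sets. The test was checked on simulated data. Correlations used 100000 permutations (numpy 2.4.6, scipy 1.17.1, Python 3.11.15, pandas 2.3.3, matplotlib 3.10.9). Separate clusters meant a gap over 1 log2 unit with at least 3 families on each side. Alternatives are described in the closing section. Labels give no shared replicate numbers. Named genes followed a rule: all member probe sets, the 8 and 5 genes most like Cd74 and H2-Ea, Ciita, and up to 4 pathway genes and 2 neighbours called per comparison. The genes most like 1422892_s_at were added after its values were seen. The members and lists were chosen with earlier results of these data known.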

Additional observations from a re-analysis of the deposited data

Results flagged for a closer look

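In the haplotype groups of 4 to 7 strains, each member probe set was examined for a strain far from the rest of its group, in 30 groups, of which chance alone would give about 1 in 20. AKR/J was the lowest k strain for H2-Aa at 3.90, with the next at 5.001, and for Cd74 at 5.40, with the next at 6.81. The gap to the next strain took 61.4% and 58.8% of the range of the 7 strains.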

How the results depend on the processing

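The 8 differences of called members kept their direction in all 103 checks, each of 1 difference under 1 alternative setting. They were no longer called in 12 of these checks. The same setting serves several differences, so the checks are not separate from each other. The H2-Ea 1422892_s_at difference ran from 5.07 to 5.28 for d minus b, from -4.71 to -4.38 for k minus d and from -4.89 to -4.00 for q minus d, all called where it was tested. It ran from 2.24 to 3.004 for BXD minus AXB and BXA (adjusted p up to 0.0217) and from -2.86 to -1.42 for BXH minus BXD (adjusted p up to 0.925). H2-Ea 1422891_at ran from 0.26 to 0.32 (adjusted p up to 0.176) and from -0.49 to -0.02 (adjusted p up to 0.995) in these comparisons, and H2-DMa in BXH minus AXB and BXA from 0.14 to 0.31 (adjusted p up to 0.941). H2-Ea 1422892_s_at lies just under the 60th percentile and is not the brightest of its gene. It is therefore not tested under a filter at the 60th percentile or with the brightest probe set per gene, and the called members then fell to 0 in d minus b, k minus d and q minus d and to 1 in BXD minus AXB and BXA and BXH minus BXD. The filter at the 60th percentile also left 0 in BXH minus AXB and BXA.

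Leaving out every array that carried markers of another organ, which left 3 BXH strains, gave 1 called member in BXD minus AXB and BXA, 0 in BXH minus AXB and BXA, 0 in BXH minus BXD, and 3 members correlated with Cd74 in BXD in place of 5 (4 in place of 5 in the classical strains). With these fewer arrays the lost differences were 0.26 against 0.27, -2.76 against -2.58 and -0.49 against -0.39 for H2-Ea, and 0.19 against 0.30 for H2-DMa. The Gapdh 3' minus 5' difference as a covariate gave 1 in BXD minus AXB and BXA and 1 in BXH minus BXD. The title number as a covariate gave 0 in both BXH comparisons, where it cannot be separated from the panel. The arrays with the lower title numbers gave 1 in BXD minus AXB and BXA, and every array on its own gave 0 in BXH minus AXB and BXA and 3 in BXH minus BXD, where Cd74 was added at 0.73 (adjusted p = 0.0484). Leaving out each strain in turn gave 0 to 1 called members in q minus b, with LP/J the strain that changed it. With Cd74 as a covariate, chosen after seeing the data, 1 member was called in q minus b, 2 in q minus d, 4 in BXD minus AXB and BXA (H2-Ab1 at 0.51 and H2-Eb1 at 0.29 besides H2-Ea) and 0 in BXH minus AXB and BXA. Without the AXB19/PgnJ array, also chosen after seeing the data, 2 were called in BXH minus AXB and BXA. Over all probe sets, BXD minus AXB and BXA had 1916 called in the main fit. It had 880 without the arrays carrying markers of another organ and 681 with the Gapdh covariate. The lower title numbers gave 783, the upper ones 284 and the Cd74 covariate 2004. In q minus b 9 were called in the main fit, 9 with Cd74 and 11 without LP/J. In q minus d these were 8 in the main fit and 13 with Cd74. Other causes of these changes were not tested. No paired analysis was possible because the labels give the groups no shared replicate numbers.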
